A study of Mus musculus with 4 samples.

Results

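The 44 genes described here run the mammalian cell cycle from G1 to mitosis. They were chosen by name, with earlier results of these data known. The set holds 5 G1 cyclins and kinases, 6 genes of the G1 to S switch and 5 inhibitors of cyclin-dependent kinases (CDKs). It also holds 12 genes of DNA replication, 4 genes of the G2 and M cyclin complexes and 12 genes of mitosis. All 44 were found among 21822 gene units, and all 44 passed the filter on low counts. They were measured by RNA sequencing in iMN-ESCs, mouse embryonic stem cells of C57BL/6 background that express Isl1-Lhx3, a fusion of LIM-homeodomain factors of spinal motor neurons, when given doxycycline (Dox). Aggregates of these cells formed over 2 days and were exposed to 0.5 µM all-trans retinoic acid for 2 days. Over a last phase of 2 to 3 days, with retinoic acid still present, 2 libraries' cells received Dox at 2 µg/mL and 2 libraries' cells received none. The submitters call these biological duplicates. Both groups carry the transgene and both received retinoic acid. No group without the transgene received Dox, so the fusion and the drug cannot be told apart. All libraries come from 1 line.

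Cyclins bind and switch on CDKs. In G1, D-type cyclins with Cdk4 or Cdk6 begin to phosphorylate the retinoblastoma protein, which releases E2F factors. Cyclin E with Cdk2 then commits the cell to S phase, where the MCM helicase opens DNA at origins, and cyclin B with Cdk1 drives mitosis. Inhibitors of the Cip/Kip family (Cdkn1a, Cdkn1b, Cdkn1c) bind cyclin-CDK complexes, and those of the Ink4 family (Cdkn2c, Cdkn2d) bind Cdk4 and Cdk6. Neural progenitors of the embryonic spinal cord divide, and the neurons born from them leave the cycle for good, a step in which these inhibitors take part.

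The fused factors followed the labels: Isl1 stood at 104 and 82.4 CPM (counts scaled to the same total in each library, with edgeR's TMM factors) in the Dox libraries and at 3.08 and 5.84 CPM in the no Dox libraries, and Lhx3 at 125 and 108 CPM with Dox and 0.404 and 0.286 CPM without Dox. Both were called higher by edgeR. Reads of the fusion and of the native genes are not separated here. Summed counts were 37311037 and 53903936 in the Dox libraries and 28239859 and 24020832 in the no Dox libraries. Several endoderm markers were abundant beside the neural ones, with Gata4 at 553 and 644 CPM with Dox and 560 and 591 CPM without Dox. Afp and Amn were scarce and did not exceed 2.16 and 7.70 CPM in any library. The 9 endoderm markers summed to 2600 and 2642 CPM with Dox and 2974 and 2715 CPM without Dox. The 8 pluripotency markers summed to 82.3 and 81.8 CPM with Dox and 101 and 82.4 CPM without Dox, most of it Klf4 (70.1 and 64.2 CPM with Dox, 90.1 and 69.4 CPM without Dox). Pou5f1 and Nanog stayed under 1 CPM in every library and Dppa3 was at 0, while Esrrb had 2.41 and 4.23 CPM with Dox and 1.47 and 1.14 CPM without Dox (adjusted p = 0.241 in edgeR). Of the other marker lists, 8 mesenchyme genes summed to 520 and 504 CPM with Dox and 507 and 470 CPM without Dox, and 5 endothelial genes to 31.5 and 52.4 CPM with Dox and 26.7 and 45.0 CPM without Dox. The 6 glial genes, which share Pdgfra with the mesenchyme list, summed to 421 and 425 CPM with Dox and 495 and 451 CPM without Dox. Pdgfra made up most of both the glial and the mesenchyme sums, with 389.4 and 391.5 CPM with Dox and 466.6 and 424.9 CPM without Dox. Gfap was under 1 CPM in every library. Col1a1 and Col3a1 of the mesenchyme list and Aqp4 of the glial list were called higher with Dox. These are bulk samples, so fewer dividing cells and less RNA per cell cannot be told apart.

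In the main fit, which left out replicate number, Cdkn1c alone of the 44 genes was called by the test across all genes. Cdkn1c, which encodes the CDK inhibitor p57, was 2.28-fold higher with Dox. In that fit no other inhibitor passed, and no cyclin, kinase, replication or mitosis gene did. That outcome rested on leaving replicate number out. A fit with replicate number called 2 members higher (Ccnd2 beside Cdkn1c) and 18 lower, as given in the closing section. The labels do not say what a replicate number shares. The 28 replication, G2 and M and mitosis genes all had a lower fitted level with Dox, by small amounts, with a median log2 fold change of -0.29. Over all 14283 genes tested the median was -0.01.

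By edgeR's quasi-likelihood test with an adjusted p under 0.05, 1 of the 44 was higher, against 1.23% of all genes tested, and 0 were lower, against 0.056%. DESeq2 and limma-voom, also without replicate number, called 1 higher and 0 lower. At an unadjusted p under 0.05, edgeR found 8 members lower, where 4.02% of all genes were, and 1 higher, where 6.26% were. That count of 8 rested on the libraries: it was 0 when Dox replicate 2 was left out, 2 when Dox replicate 1 was, and 17 when no Dox replicate 2 was. In 23 of the 44 members (52.3%) both Dox libraries lay below both no Dox libraries, which 19.9% of all genes tested did. In 2 members, Cdkn1c and Ccnd1, both lay above, as in 18.9% of all genes, and in 19 the groups overlapped.

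**Figure D1:**
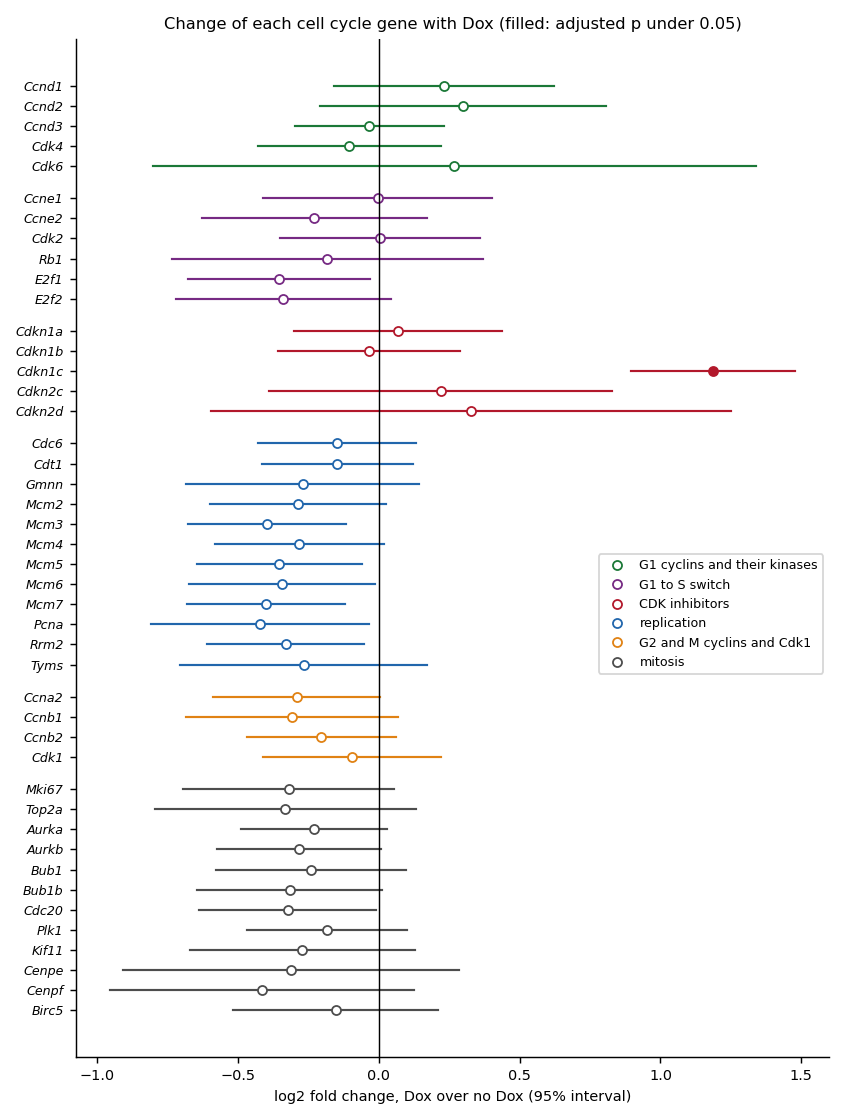
Log2 fold change of each of the 44 genes, Dox over no Dox, with its 95% interval from edgeR (x axis), listed by role (y axis). Cdkn1c at 1.19 is the only filled point (adjusted p under 0.05); the replication, G2 and M and mitosis genes all lie left of 0, and in most of them the interval crosses 0.

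Among the CDK inhibitors, Cdkn1c had 408 and 379 CPM in the Dox libraries, against 169 and 177 CPM in the no Dox libraries. The groups were far apart and each pair of replicates lay close together. The log2 fold change was 1.19 (SE 0.12, 95% interval 0.90 to 1.48, adjusted p = 0.010). With each library left out in turn it ran between 1.13 and 1.26. Cdkn1c is an imprinted gene, expressed mainly from the maternal copy, and counts per gene do not separate the alleles.

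The difference was spread over the transcript. The tables split Cdkn1c into 5 numbered parts, and in each of them both Dox libraries exceeded both no Dox libraries. Part 1 had 5613 and 8867 counts with Dox and 1801 and 2031 counts without Dox, and the ratio of mean CPM was 2.10. Part 3 had 6541 and 7833 counts with Dox and 1862 and 1447 counts without Dox, a ratio of 2.50. The part with the fewest counts, part 4, had 207 and 240 counts with Dox and 85 and 50 counts without Dox, a ratio of 1.93. Parts 2 and 5 had ratios of 2.21 and 2.43.

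**Figure D2:**
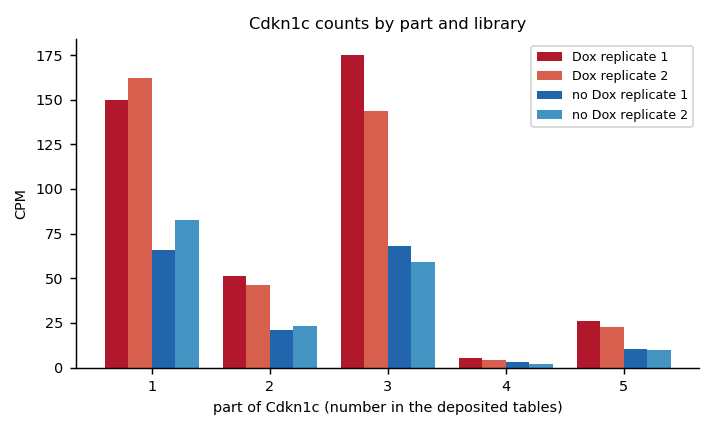
CPM of each of the 5 parts of Cdkn1c (x axis) in the 4 libraries, 1 bar per library, with the y axis starting at 0. In every part the 2 Dox bars stand above the 2 no Dox bars; part 3 reaches 175 and 143 CPM with Dox against 68.3 and 59.0 CPM without Dox.

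None of its relatives was called. Cdkn1a (p21), the inhibitor best known as a target of p53, had 103 and 88.4 CPM with Dox and 101 and 81.8 CPM without Dox. Cdkn1b (p27), which holds many cells in quiescence, had 80.5 and 82.1 CPM with Dox and 91.5 and 75.1 CPM without Dox. Both genes overlapped between the groups, with log2 fold changes of 0.07 (95% interval -0.30 to 0.44) for Cdkn1a and -0.04 (-0.36 to 0.29) for Cdkn1b. These intervals leave out a doubling of either gene. The Ink4 inhibitors were scarce. Cdkn2c (p18) had 3.16 and 3.83 CPM with Dox and 2.79 and 3.22 CPM without Dox. Cdkn2d (p19) had 1.15 and 0.805 CPM with Dox and 0.844 and 0.694 CPM without Dox. For this pair the intervals were wide, -0.39 to 0.83 for Cdkn2c and -0.59 to 1.25 for Cdkn2d on the log2 scale, and a doubling of Cdkn2d cannot be left out at this depth. The difference in response between the inhibitors was not itself tested.

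Scaled by exon length, Cdkn1c was the most abundant of the 5 in every library. It stood at 210 and 195 CPM per kb with Dox and at 86.8 and 91.1 CPM per kb without Dox. Cdkn1a came next, at 50.8 and 43.4 CPM per kb with Dox and 49.6 and 40.2 CPM per kb without Dox, then Cdkn1b at 33.6 and 34.3 CPM per kb with Dox and 38.2 and 31.4 CPM per kb without Dox. By this measure Cdkn1c made up 70.5% of the summed inhibitor level per kb in both Dox libraries, and 48.8% and 54.9% in the no Dox libraries. Reads that span parts may be counted in each part. Cdkn1c has 5 parts, Cdkn1a 4 and Cdkn1b 3, so comparisons between these genes are approximate. The sum itself was 298 and 277 CPM per kb with Dox and 178 and 166 CPM per kb without Dox.

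**Figure D3:**
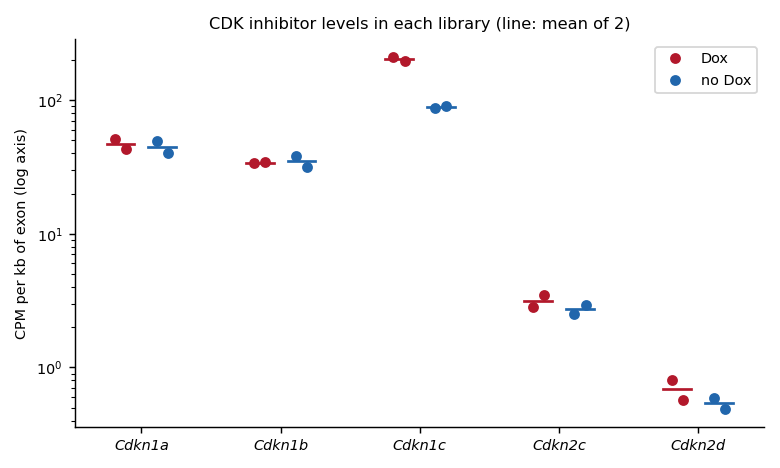
Level of the 5 CDK inhibitors in CPM per kb of exon (y axis, log scale), with 1 point per library, a line at the mean of 2, Dox left of no Dox. The groups separate for Cdkn1c, which stands at 210 and 195 CPM per kb with Dox, and overlap for the other 4 genes.

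None of the 5 G1 cyclins and kinases passed in the main edgeR fit, DESeq2 or limma-voom, which all left out replicate number. None had an unadjusted p under 0.05 in that edgeR fit. Ccnd2, the D-type cyclin with the highest level per kb here, had 805 and 579 CPM with Dox and 628 and 497 CPM without Dox. Ccnd1 had 307 and 233 CPM with Dox and 233 and 227 CPM without Dox. Cdk4, the kinase that both cyclins bind, had 411 and 414 CPM with Dox and 409 and 477 CPM without Dox. Ccnd2 and Cdk4 overlapped between the groups, and in Ccnd1 Dox replicate 2 lay beside no Dox replicate 1. With DESeq2 size factors 1 member, not 2, had both Dox libraries above both others. The log2 fold changes were 0.30 (SE 0.21) for Ccnd2, 0.23 (SE 0.16) for Ccnd1 and -0.10 (SE 0.13) for Cdk4, with adjusted p of 0.754, 0.754 and 0.901.

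The cyclin D genes differed in level. Per kb of exon, Ccnd2 stood at 127 and 91.4 CPM with Dox and 99.3 and 78.5 CPM without Dox, and Ccnd1 at 82.1 and 62.3 CPM with Dox and 62.2 and 60.8 CPM without Dox. Ccnd3 had 58.8 and 55.1 CPM per kb with Dox and 59.1 and 57.4 CPM per kb without Dox. The order Ccnd2, Ccnd1, Ccnd3 held in each of the 4 libraries. Cdk4 lay above all of them, at 200 and 202 CPM per kb with Dox and 199 and 233 CPM per kb without Dox, while Cdk6, the other kinase of D cyclins, did not exceed 1.13 CPM per kb in any library. The median log2 fold change of these 5 genes was 0.23, but it moved with the library left out: it was -0.08 with Dox replicate 1 left out, 0.44 with Dox replicate 2 left out and 0.01 with no Dox replicate 2 left out.

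Of the 6 genes of the G1 to S switch, the main edgeR fit, DESeq2 and limma-voom, all without replicate number, called none. At an unadjusted p under 0.05 in that edgeR fit 1, E2f1, was lower, against 4.02% of all genes tested. E2f1 and E2f2 encode activator E2Fs, which switch on S phase genes and are themselves E2F targets. E2f1 had 32.9 and 30.6 CPM with Dox and 38.0 and 43.2 CPM without Dox (-0.35 as a log2 fold change, SE 0.13, adjusted p = 0.427). E2f2 had 20.2 and 16.8 CPM with Dox and 23.9 and 22.8 CPM without Dox (-0.34, SE 0.16, adjusted p = 0.560). In both, and in the cyclin gene Ccne2, the 2 Dox libraries lay below the 2 no Dox libraries, against 19.9% of all genes tested. The other 3 genes overlapped. Cdk2, the partner of cyclin E, had 150 and 172 CPM with Dox and 145 and 177 CPM without Dox. Rb1, the retinoblastoma gene, had 146 and 109 CPM with Dox and 172 and 117 CPM without Dox. Ccne1 had a log2 fold change of -0.004, with 75.7 and 75.3 CPM with Dox and 63.9 and 87.5 CPM without Dox, and exceeded Ccne2 per kb in all 4 libraries.

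All 12 genes of DNA replication had a log2 fold change below 0, from -0.42 for Pcna to -0.15 for Cdt1, with a median of -0.31. Of all genes tested 52.9% lay below 0. In 10 of the 12, all but Gmnn and Tyms, both Dox libraries lay below both no Dox libraries, against 19.9% of all genes tested. None of the 12 passed in the main edgeR fit, DESeq2 or limma-voom, which all left out replicate number. At an unadjusted p under 0.05 in edgeR, 6 were lower (Mcm3, Mcm5, Mcm6, Mcm7, Pcna and Rrm2), against 4.02% of all genes tested. Mcm2 to Mcm7 encode the subunits of the ring-shaped helicase that is loaded at origins in G1. Mcm7 had 93.8 and 84.0 CPM with Dox and 114 and 120 CPM without Dox (-0.40 as a log2 fold change, SE 0.12, adjusted p = 0.257). Mcm3 had 307 and 297 CPM with Dox and 398 and 397 CPM without Dox (-0.40, SE 0.12, adjusted p = 0.262). Mcm6, the subunit with the highest CPM, had 340 and 309 CPM with Dox and 440 and 382 CPM without Dox (-0.34, SE 0.14, adjusted p = 0.461).

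In the 6 MCM genes both Dox libraries lay below both no Dox libraries, against 19.9% of all genes tested. Their log2 fold changes lay between -0.28 (Mcm4) and -0.40 (Mcm7). Mcm7 overlaps Ap4m1 and 3 miRNA genes in the annotation, so its counts may not be its own alone. When each gene was counted by its largest part alone, Mcm7 had a log2 fold change of -0.16 (edgeR adjusted p = 0.881). The loaders stood nearer to 0 by summed counts, a difference that was not tested. Cdc6, which with Cdt1 puts the helicase on DNA, had 48.5 and 53.1 CPM with Dox and 55.3 and 57.4 CPM without Dox (-0.15). Cdt1 had 121 and 115 CPM with Dox and 135 and 127 CPM without Dox (-0.15). By the largest part alone, Cdt1 had a log2 fold change of -0.25 and Cdc6 one of -0.15. Gmnn, which encodes the Cdt1 inhibitor geminin, overlapped between the groups (-0.27).

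Genes that supply or clamp the polymerase had similar values. Rrm2, the regulatory subunit of ribonucleotide reductase, had 122 and 109 CPM with Dox and 144 and 146 CPM without Dox (-0.33, SE 0.11, adjusted p = 0.367). Pcna, the sliding clamp, had 16.1 and 18.5 CPM with Dox and 21.5 and 24.8 CPM without Dox (-0.42, SE 0.16, adjusted p = 0.433). At 10.6 and 12.2 CPM per kb with Dox and 14.2 and 16.4 CPM per kb without Dox, Pcna lay under each of the 6 MCM genes. The annotation names 2 pseudogenes after Pcna and 1 each after Tyms, Ccnb1, Ccnb2 and Ccnd3. Reads shared with such copies may be missing from or split between the counts, so the levels of these 5 genes are uncertain. In all, 15 members overlap another annotated gene, among them Ccnd1, Cdk4, Cdk2, Rb1, E2f1, Ccna2, Cdc20 and Top2a, and whether reads were counted by strand is not given. Cdkn1c has neither an overlapping gene nor a named pseudogene there.

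Promoter sequence gives a feature that the choice of members did not use. Many replication genes are textbook E2F targets, and many G2 and M genes carry a CHR element (cell cycle genes homology region) with CCAAT boxes, the site of NF-Y. The letters TTTCCCGC, TTTCGCGC, TTTGCCGC and TTTGGCGC (E2F), TTTGAA and TTCGAA (CHR) and CCAAT were searched on both strands in the 250 bases before the start of 35 members with a window in RefSeq (GRCm38.p6). The E2F letters stood in 4 of 10 replication genes, in 0 of 11 mitosis genes and in 1.91% of all 27025 windows. The CHR letters stood in 2 of 10 replication genes, in 5 of 11 mitosis genes and in 17.4% of all windows. CCAAT stood in 7 of 10, 10 of 11 and 34.5%. Of the 3 G2 and M members with a window, 1 had the E2F letters, 2 the CHR letters and 3 CCAAT. The 27025 windows cover every gene that has a window, and not only the genes tested here. Mcm7 and Cdc20 are shown as the members with the smallest p in their groups, Mcm6 as the one with the most E2F letters and Top2a as the one with the most CHR letters. Capitals mark the letters found, and matches on opposite strands can overlap, as in Mcm6.
Mcm7 (chr5:138171884-138172133, minus strand): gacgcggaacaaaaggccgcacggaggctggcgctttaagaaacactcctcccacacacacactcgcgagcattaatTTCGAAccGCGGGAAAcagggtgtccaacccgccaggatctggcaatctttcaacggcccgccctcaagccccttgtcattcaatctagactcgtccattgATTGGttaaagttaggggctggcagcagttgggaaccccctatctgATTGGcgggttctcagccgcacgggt
Mcm6 (chr1:128359706-128359955, minus strand): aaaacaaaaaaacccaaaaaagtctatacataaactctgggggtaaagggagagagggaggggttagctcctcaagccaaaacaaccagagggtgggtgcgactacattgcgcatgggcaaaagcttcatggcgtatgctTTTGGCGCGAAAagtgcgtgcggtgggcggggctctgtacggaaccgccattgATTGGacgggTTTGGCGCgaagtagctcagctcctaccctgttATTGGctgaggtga
Cdc20 (chr4:118437344-118437593, minus strand): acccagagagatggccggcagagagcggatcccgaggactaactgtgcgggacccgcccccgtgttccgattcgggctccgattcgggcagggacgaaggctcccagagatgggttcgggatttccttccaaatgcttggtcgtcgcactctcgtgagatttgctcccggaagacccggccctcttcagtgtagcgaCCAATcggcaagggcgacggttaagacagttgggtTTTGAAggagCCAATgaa
Top2a (chr11:99024190-99024439, minus strand): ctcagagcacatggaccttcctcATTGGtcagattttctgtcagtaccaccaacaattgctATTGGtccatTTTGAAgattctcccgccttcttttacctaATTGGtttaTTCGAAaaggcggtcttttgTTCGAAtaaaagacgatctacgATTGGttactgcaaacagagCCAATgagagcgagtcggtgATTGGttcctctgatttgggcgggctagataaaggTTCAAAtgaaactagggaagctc
Mcm6 held 3 E2F matches and no CHR match, Cdc20 held 1 CHR match and no E2F match, and Mcm7 held 1 of each. A match is a description of these letters and not of a bound site.

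Of the G2 and M cyclins and Cdk1, none of the 4 passed in the main edgeR fit, DESeq2 or limma-voom, all without replicate number. None had an unadjusted p under 0.05 in that edgeR fit. Ccna2, the cyclin of S phase and G2, had 247 and 252 CPM with Dox and 322 and 288 CPM without Dox (log2 fold change -0.29, SE 0.12, adjusted p = 0.498). Ccnb1, the main mitotic cyclin, had 39.6 and 44.5 CPM with Dox and 46.2 and 58.0 CPM without Dox (-0.31, SE 0.15, adjusted p = 0.599). In both, as in Ccnb2, both Dox libraries lay below both no Dox libraries, against 19.9% of all genes tested. Cdk1 did overlap, with 168 and 177 CPM with Dox and 169 and 199 CPM without Dox (-0.09, SE 0.13, adjusted p = 0.916). The median of the 4 was -0.25. Without no Dox replicate 2 it was -0.14, and Cdk1 stood at 0.03.

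All 12 genes of mitosis had a log2 fold change below 0, from -0.41 for Cenpf to -0.15 for Birc5, with a median of -0.30. In 7 of them both Dox libraries lay below both no Dox libraries, against 19.9% of all genes tested. None of the 12 passed in the main edgeR fit, DESeq2 or limma-voom, all without replicate number. At an unadjusted p under 0.05 in that edgeR fit 1, Cdc20, was lower, against 4.02% of all genes tested. Cdc20, the activator of the anaphase-promoting complex, had 53.6 and 50.0 CPM with Dox and 69.9 and 59.6 CPM without Dox (-0.32, SE 0.13, adjusted p = 0.468). Aurkb, the kinase of the chromosomal passenger complex, had 98.6 and 87.4 CPM with Dox and 117 and 109 CPM without Dox (-0.28, SE 0.12, adjusted p = 0.502). Mki67, which encodes the proliferation antigen Ki-67, had 577 and 513 CPM with Dox and 748 and 613 CPM without Dox (-0.32, SE 0.15, adjusted p = 0.581). These 3 genes did not overlap between the groups.

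Top2a, the topoisomerase that untangles sister chromatids, had the highest level of all 44 genes in CPM. It had 1177 and 989 CPM with Dox and 1556 and 1167 CPM without Dox (-0.33, SE 0.19, adjusted p = 0.669). Dox replicate 1 stood above no Dox replicate 2, so the groups overlapped. The same was so for Kif11, a motor of the spindle, and for Cenpe and Cenpf, proteins of the kinetochore, while in Birc5 (survivin) Dox replicate 2 stood above no Dox replicate 1. Cenpe had 235 and 198 CPM with Dox and 333 and 203 CPM without Dox. The spindle checkpoint genes Bub1 and Bub1b and the kinase genes Aurka and Plk1 did not overlap, with Dox below. Of all genes tested 19.9% did so. In that order the log2 fold changes were -0.24, -0.32, -0.23 and -0.18. Without no Dox replicate 1 the median of the 12 mitosis genes was -0.13 and the log2 fold change of Cenpe was 0.10.

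**Figure D4:**
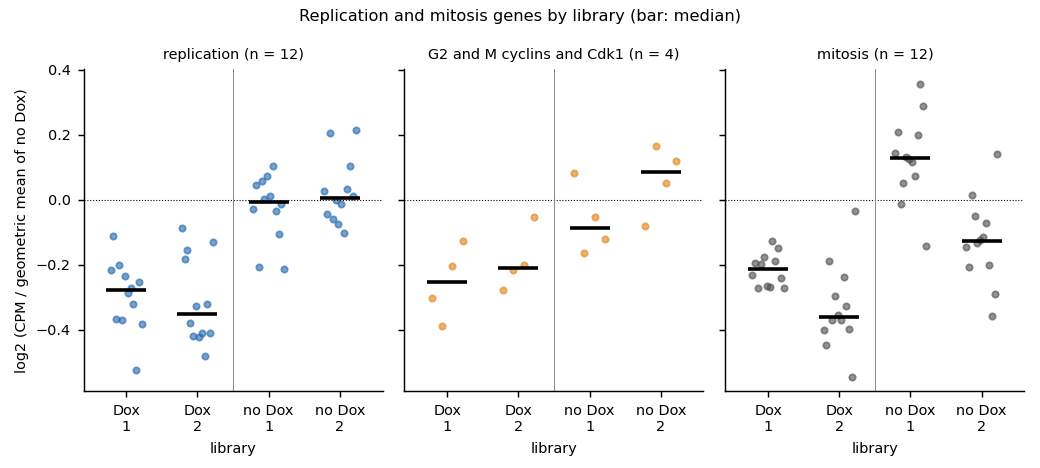
Level of each replication, G2 and M and mitosis gene in each library, as log2 of its CPM over the geometric mean of the 2 no Dox libraries (y axis), with 1 point per gene and a bar at the median. The median of replication genes was -0.28 and -0.35 in the Dox libraries and -0.01 and 0.01 in the no Dox libraries; for mitosis genes the no Dox libraries themselves stood at 0.13 and -0.13.

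The median level of mitosis genes against the no Dox mean was -0.21 and -0.36 on the log2 scale in Dox replicates 1 and 2 and 0.13 and -0.13 in no Dox replicates 1 and 2. For replication genes it was -0.28 and -0.35 with Dox and -0.01 and 0.01 without Dox. The replicate difference moved with transcript length in both groups. Over the 44 genes, log2 of exon length and log2 of replicate 1 over replicate 2 had a Pearson r of 0.53 (Spearman 0.46) with Dox and 0.64 (0.51) without Dox, and the replicate ratios of the 2 groups had an r of 0.80 with each other. These are descriptions across genes of the same libraries and not across samples. Exon length against the log2 fold change with Dox had an r of -0.14. The part of this length-linked difference in the results was not tested.

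**Figure D5:**
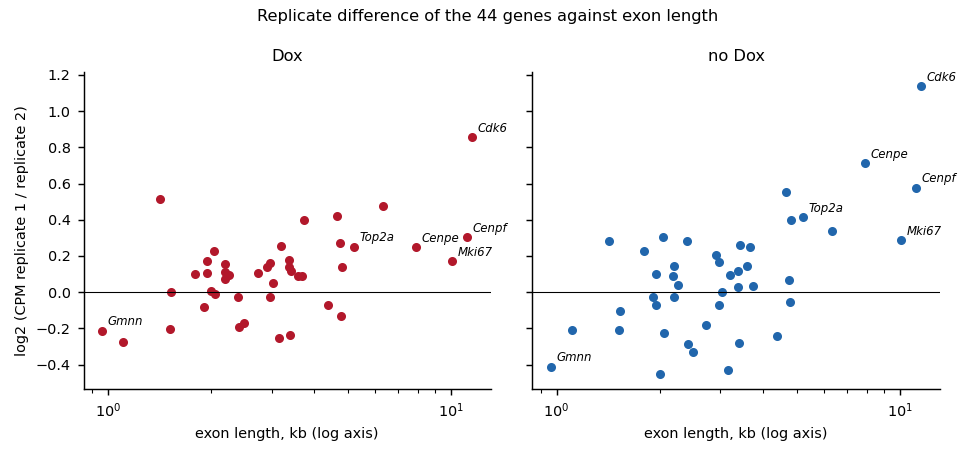
Log2 ratio of replicate 1 over replicate 2 (y axis) against exon length in kb (x axis, log scale) for the 44 genes, with Dox on the left and without Dox on the right, 1 point per gene. Long genes such as Cdk6 (0.86 with Dox and 1.14 without Dox) and Cenpe (0.25 and 0.71) lie above 0 and the short Gmnn (-0.21 and -0.41) below it in both groups.

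Other genes of the same pathways were read from 5 lists, with edgeR's main fit, DESeq2 and limma-voom, all without replicate number. For comparison, 52.9% of all genes tested lay below 0. At an unadjusted p under 0.05 in edgeR, 4.02% of all genes tested were lower and 6.26% higher. Foxm1 shares its unit with another gene and is given no value, and Casc5 is an older name of Knl1, which is counted. Of 28 other replication genes, edgeR called 0, 11 were lower and 0 higher at an unadjusted p under 0.05, and all 28 lay below 0 (median log2 fold change -0.27). Among them Rfc4, a subunit of the clamp loader, had 71.5 and 71.4 CPM with Dox and 87.7 and 97.8 CPM without Dox (log2 fold change -0.38, SE 0.11, adjusted p = 0.277). Of 30 other mitosis genes edgeR called 0, 4 were lower and 0 higher at an unadjusted p under 0.05, and all 30 lay below 0 (median -0.23). The smallest p here belonged to Cdca8, which encodes borealin of the passenger complex, with 150 and 146 CPM with Dox and 205 and 193 CPM without Dox (adjusted p = 0.201), and to Nusap1, a spindle protein (-0.40, adjusted p = 0.233). DESeq2 and limma-voom called none in either list.

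Of 15 E2F, pocket protein and B-Myb factors, 0 were called, 1 was lower and 0 higher at an unadjusted p under 0.05, and 13 lay below 0 (median -0.17). Tfdp2, a partner of E2Fs, had a log2 fold change of -0.45 (adjusted p = 0.473), and E2f8, a repressive E2F, one of -0.30 (adjusted p = 0.557). Of 17 CDK activators and other control genes, 0 were called, 1 was lower and 0 higher at an unadjusted p under 0.05, and 16 lay below 0 (median -0.15). Fbxo5, an inhibitor of the anaphase-promoting complex, had -0.32 (adjusted p = 0.333), and the phosphatase gene Cdc25b -0.47 (adjusted p = 0.540). DESeq2 and limma-voom called none in these lists either.

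Of 16 p53 targets and antiproliferative genes, edgeR and limma-voom called 0 and DESeq2 called 1 lower. At an unadjusted p under 0.05 edgeR found 1 lower and 0 higher, with 9 below 0 and 7 above (median -0.03). Gadd45a, a p53 target that binds PCNA and p21, had 23.7 and 21.2 CPM with Dox and 37.5 and 33.7 CPM without Dox (log2 fold change -0.67, SE 0.14, adjusted p = 0.117; 0.0172 in DESeq2). Gadd45g, its relative in neural progenitors, had 25.0 and 18.7 CPM with Dox and 29.5 and 29.2 CPM without Dox (-0.43, SE 0.18, adjusted p = 0.489). Mdm2 and Ccng1, direct p53 targets like Cdkn1a, had log2 fold changes of -0.04 and 0.00.

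Markers of neural progenitors and of neurons were read as well, with edgeR's main fit. Of 9 progenitor markers, 8 had a log2 fold change below 0 and 7 did not overlap, with Dox below (median -0.66). Olig2 went the other way (0.27), with both Dox libraries above both no Dox libraries, and did not exceed 1.93 CPM in any library. Over all genes tested, 52.9% lay below 0 and 19.9% did not overlap, with Dox below. At an unadjusted p under 0.05 in edgeR, 4.02% of all genes tested were lower and 6.26% higher. The summed level of the 9 progenitor markers was 557 and 362 CPM with Dox and 811 and 623 CPM without Dox. Hes5, a Notch target, had 23.1 and 12.5 CPM with Dox and 49.7 and 48.0 CPM without Dox (adjusted p = 0.0981), and Pax6 had 87.2 and 67.4 CPM with Dox and 149 and 134 CPM without Dox (adjusted p = 0.0746). Of the 9, edgeR and limma-voom called 0, DESeq2 called 3 lower, and 5 were lower and 0 higher at an unadjusted p under 0.05 in edgeR. Of 12 neuron markers 9 lay below 0, and 3, the intermediate filament genes Ina, Nefl and Nefm, lay above (median of the 12 -0.49). Here edgeR called Nefm higher and 0 lower. By DESeq2, 3 were higher and 2 were lower, and 3 were higher and 4 lower at an unadjusted p under 0.05 in edgeR. The neuron list summed to 1559 and 1270 CPM with Dox and 854 and 653 CPM without Dox, a sum led by Nefl, with 900 and 659 CPM with Dox and 277 and 166 CPM without Dox. Of 6 motor neuron markers edgeR called 5 higher and 0 lower, against 1.23% and 0.056% of all genes tested. That list summed to 1381 and 1165 CPM with Dox and 88.5 and 60.3 CPM without Dox. Slit2 led this sum, with 1267 and 1048 CPM with Dox and 84.1 and 56.5 CPM without Dox. Whether the fold changes of these markers are linked to those of the cell cycle genes was not tested.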

How the data were processed

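RNA was sequenced from 2 libraries with Dox and 2 without. Libraries followed the Illumina TruSeq protocol, per the labels' protocols. The submitters' processing notes name TopHat and mouse build mm9. The sources used here do not give how reads were counted, with which annotation or whether by strand. The authors deposited counts, in whole numbers, for 208825 parts of RefSeq genes. A read that spans parts may be counted in each, so levels are compared only roughly between genes with different numbers of parts. The 4 closing rows that name no gene were left out; reads outside genes made up 13.6% to 15.8% and ambiguous reads 0.411% to 0.521% of each table.

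Parts were summed to 21822 units, and 97.1% of 27601 identifiers matched a symbol in RefSeq (GRCm38.p6) or GENCODE M21. That build is later than mm9, so it gave only names, overlaps, exon lengths and promoter sequence with its own coordinates. CPM use summed part counts scaled by TMM. Genes were tested with edgeR 4.0.16 (R 4.3.3), using TMM factors, filterByExpr, robust quasi-likelihood dispersions and its F test, and p-values were adjusted by Benjamini-Hochberg over 14283 genes. SE is the log2 fold change over the root of F. The biological coefficient of variation was 0.148. The replicates of a group were separate libraries by their counts, with a chi-square of 34.6 (Dox) and 37.4 (no Dox) for each degree of freedom. On counts simulated for this comparison (14151 genes run), 71% of the 100 genes given a 2-fold change were called, as were 98% of the 100 given a 4-fold change, and 24 calls were false. Smaller changes, such as those of most members, were not simulated. The simulation gave same-numbered libraries no shared difference. In the real data they deviated together across genes (r = 0.505). Alternatives used DESeq2 1.42.0 and limma 3.58.1.

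P-values measure only the spread between these libraries. The members, gene lists, role groups and tests were chosen with earlier results of these data known. Values per library are given for every called member, every CDK inhibitor, and in each other role group the 2 members with the smallest p and the 2 with the largest mean CPM, with further members added to describe a group; of other pathway lists the 2 genes with the smallest p are named, except 1 that is not reported here, and further genes there were chosen after their values were seen.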

Additional observations from a re-analysis of the deposited data

How the results depend on the processing

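The call of Cdkn1c held in all 12 alternatives (log2 fold change 1.10 to 1.26), and no alternative except the replicate block called another of the 44 genes. Without a library, genes called ran from 276 to 283 higher and 22 to 124 lower. DESeq2 called 403 higher and 116 lower, no filter 295 and 46, and a mean of 5 CPM 104 and 4. Lower calls were 16 with library totals, 13 in limma-voom and 14 with the largest part as the count. The labels do not say what a replicate number shares. Same-numbered libraries deviated together across genes (r = 0.505), which with 2 pairs is a hint from the data and not the design. Under the replicate block, 1047 genes were called higher and 869 lower, and of the members 2 higher (Ccnd2 beside Cdkn1c) and 18 lower (8 replication, 7 mitosis, 2 G2 and M genes and E2f1), with 27 lower at an unadjusted p under 0.05. Without the block, members lower at an unadjusted p under 0.05 numbered 8 with all libraries and 0 to 17 with a library left out.

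Median log2 fold changes with a library left out ran from -0.08 to 0.44 for G1 cyclins and kinases, -0.38 to -0.081 for the G1 to S switch, 0.064 to 0.24 for inhibitors, -0.35 to -0.26 for replication, -0.23 to -0.14 for G2 and M genes and -0.44 to -0.13 for mitosis genes. With the largest part as the count the replication median was -0.35. Members with Dox above in both libraries numbered 1 with DESeq2 size factors; these counts of separated members, and those at an unadjusted p, were alternatives chosen after seeing the data.

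Signs turned in 10 members that were not called. With a library left out in turn, log2 fold changes ran from -0.08 to 0.033 for Ccnd3, -0.203 to 0.011 for Cdk4, -0.22 to 0.959 for Cdk6, -0.205 to 0.24 for Ccne1, -0.12 to 0.153 for Cdk2, -0.44 to 0.13 for Rb1, -0.076 to 0.24 for Cdkn1a, -0.172 to 0.12 for Cdkn1b, -0.201 to 0.03 for Cdk1 and -0.625 to 0.098 for Cenpe. Ccne1 was 0.012 with library totals, 0.010 with a mean of 5 CPM, 0.011 with the block, 0.002 with DESeq2 or its size factors, 0.016 in limma-voom and 0.018 with no filter, and Cdk2 was -0.019 with the largest part. The cause was not tested. Low counts limit what can be said of Cdkn2d, which stayed near 1 CPM.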
